A study of Mus musculus with 4 samples.

Results

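The 9 genes described here are genes typical of regulatory T cells: Foxp3, Ikzf2, Ikzf4, Ctla4, Tigit, Lrrc32, Itgb8, Nrp1 and Izumo1r. They were chosen by gene symbol from the 22558 genes counted, with the difference in their levels between the libraries already known, so that their own differences are given as a description without a test. All 9 were among the 11711 genes that passed the limits on low values. RNA was sequenced from group 2 innate lymphoid cells (ILC2s) of the lung, lymphocytes that carry no antigen receptor and release type 2 cytokines. The cells came from wildtype (WT) C57BL/6 mice and from ICAM-1 KO mice (the B6.129S4-Icam1tm1Jcgr/J strain), whose targeted allele is carried by every cell and not by ILC2s alone. All mice were 6 weeks old and had received 3 intranasal doses of 0.5 µg recombinant mouse IL-33 (rmIL-33), and lungs were taken on day 4. Each group had 2 libraries, each from a pool of 4 mice, and none of the libraries analysed here came from unchallenged mice. Cells were sorted as CD45+ ST2+ CD127+ and negative for a lineage panel that held CD3ε, CD4, CD5, TCRβ and TCRγδ, the surface proteins of T cells, beside B cell, myeloid and erythroid proteins.

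Regulatory T cells are CD4+ T cells that restrain immune responses. Foxp3 is their defining transcription factor, and its loss leads to fatal autoimmunity. They act through surface molecules that take costimulatory ligands away from antigen-presenting cells, through release of active TGF-β from its latent form, and through suppressive cytokines and extracellular adenosine. In the lung, regulatory T cells are known to respond to IL-33 through ST2, the receptor that was also used in the sort, and some members such as CTLA-4 are found on other activated lymphocytes as well.

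Icam1, the gene targeted in the knockout, was counted 2579 and 2630 times in WT and 2812 and 3453 times in the KO-labelled libraries. In the quasi-likelihood test of edgeR, with Benjamini-Hochberg adjustment over all genes tested, its log2 fold change of 0.33 (standard error 0.108) did not pass, at an adjusted p of 0.0745. RNA of the targeted gene was thus not reduced under the knockout label, so these are called KO-labelled libraries here, and each direction rests on the label. Which exons of Icam1 were read cannot be seen in gene counts. Gm47079 overlaps Icam1 on the opposite strand, shares 11.7% of its exon bases and was itself given at most 9.37 counts in a library. The libraries held 24796148 to 28782471 estimated counts. Normalized counts are the authors' upper quartile values. Each SD rests on 2 libraries, and pools do not show the spread between animals. ILC2 markers were abundant in every library, with a summed normalized count of 9342 and 9851 in WT and 7943 and 8119 in the KO-labelled libraries. Of the 17 ILC2 markers tested, 2 rose and 5 fell in the latter at an adjusted p under 0.05. Of all genes tested, 8.80% rose and 4.97% fell. The other 10 ILC2 markers, Gata3 and Il1rl1 among them, did not pass. Arg1, the ILC2 marker with the highest normalized count, fell by 0.65 on the log2 scale (adjusted p = 0.00371).

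The promoters of Foxp3, Ctla4 and Tigit are shown because these 3 genes differed to unlike degrees between the groups, Foxp3 by the most of them and Ctla4 by the least. RefSeq promoters of GRCm38.p6 were found for 6 of the 9 genes and not for Ikzf2, Ikzf4 and Lrrc32. Each sequence below is the 250 bases before the start of a RefSeq transcript, 5′ to 3′ on the strand of the gene. The windows of Foxp3 and Ctla4 lie inside the spans that the deposited coordinates give these genes, since other transcripts start further upstream, and that of Foxp3 overlaps an exon of Flicr. The 3 windows lie at chrX:7580233-7580482 on the plus strand (Foxp3), chr1:60908775-60909024 on the plus strand (Ctla4) and chr16:43664185-43664434 on the minus strand (Tigit). The bases just after the start were found in a GENCODE transcript of the gene for Foxp3 and Ctla4 but not for Tigit. The RefSeq start of Tigit lies outside the span that the deposited coordinates give this gene. Capitals mark the letters of 3 motif cores on either strand: AAACA or TGTTT, the core bound by forkhead factors such as FOXP3, GGAAA or TTTCC, the core bound by NFAT, and TGTGGT or ACCACA, the core bound by RUNX factors.
Foxp3: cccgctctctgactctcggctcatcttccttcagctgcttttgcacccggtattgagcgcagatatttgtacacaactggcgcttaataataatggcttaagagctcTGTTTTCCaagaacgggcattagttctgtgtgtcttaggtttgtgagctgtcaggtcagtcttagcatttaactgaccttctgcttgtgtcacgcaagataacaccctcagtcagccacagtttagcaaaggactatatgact
Ctla4: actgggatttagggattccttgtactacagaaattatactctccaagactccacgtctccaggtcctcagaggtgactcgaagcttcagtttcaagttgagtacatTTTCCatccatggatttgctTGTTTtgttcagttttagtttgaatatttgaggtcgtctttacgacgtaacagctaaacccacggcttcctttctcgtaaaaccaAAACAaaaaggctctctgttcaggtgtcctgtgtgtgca
Tigit: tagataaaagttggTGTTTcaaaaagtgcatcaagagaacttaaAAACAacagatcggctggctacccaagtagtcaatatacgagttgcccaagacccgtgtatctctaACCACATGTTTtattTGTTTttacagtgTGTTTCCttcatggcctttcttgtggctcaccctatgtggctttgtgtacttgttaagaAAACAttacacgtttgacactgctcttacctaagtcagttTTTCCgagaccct
The Foxp3 window held 1 forkhead core and 1 NFAT core, which share letters. RefSeq gives Foxp3 a second start, and the window before it, chrX:7579426-7579675, held 2 forkhead cores and 1 NFAT core and is not printed because it overlaps exons of Foxp3 and Flicr. The Ctla4 window held 2 forkhead cores and 1 NFAT core. The Tigit window held 6 forkhead cores, 2 NFAT cores and 1 RUNX core, and several of them adjoin or overlap. Of 32851 RefSeq promoter windows of this length, 46.4% held the forkhead core, 55.6% the NFAT core and 14.0% the RUNX core. The cores are short and common, and a match is a match of letters and not a measured site of binding.

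Foxp3, on chromosome X of mm10 from 7573644 to 7595245, was counted 1282 and 1703 times in WT and 4528 and 5673 times in the KO-labelled libraries. Its normalized count was 42.4 and 53.9 in WT, a mean of 48.1 ± 8.20 (SD, n = 2). It was 157 and 181 in the KO-labelled libraries, a mean of 169 ± 16.7 (SD, n = 2). Both of the latter lay far above both WT libraries, and the distance between the groups was well over the distance within each. The log2 fold change was 1.84 (standard error 0.138), or 3.58-fold. Over the 4 fits that each lacked a library it ranged from 1.68 to 2.02. Foxp3 RNA was thus counted in every library of cells sorted without T cell surface proteins, the WT libraries included. In bulk RNA, more cells of a type and more RNA per cell cannot be told apart.

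Foxp3 shares exon bases with 4 other annotated genes, so part of its count could belong to them. Use of strand in the counting is not given in the sources used here. Flicr, a noncoding RNA on the same strand, shares 853 bases, or 18.6% of the merged Foxp3 exons, and was itself given 29.6, 81.6, 98.2 and 76.8 counts in WT 1, WT 2, ICAM-1 KO 1 and ICAM-1 KO 2. Ccdc22, Gm36995 and Ppp1r3f lie on the opposite strand. None of these 3 passed the test, with log2 fold changes of 0.12, 0.61 and -0.94 and adjusted p-values of 0.682, 0.240 and 0.126. The other members share less. Gm29114 shares 144 exon bases with Ikzf2, Gm26876 shares 37 with Ikzf4 and Mir1903 shares 80 with Nrp1, while Rpl18-ps1 in Ctla4 and Gm28112 and Gm29112 in Ikzf2 share none and no gene overlaps Lrrc32, Izumo1r, Itgb8 or Tigit.

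The Ikaros family factors Helios and Eos work beside FOXP3 in regulatory T cells. Ikzf2, which encodes Helios and lies on chromosome 1 from 69531214 to 69687245, had normalized counts of 27.2 and 25.8 in WT and 70.0 and 80.2 in the KO-labelled libraries. These rest on 823, 813, 2015 and 2516 counts, with the WT libraries nearly level and the other group well above them. The means were 26.5 ± 1.01 and 75.1 ± 7.24 (SD, n = 2 each), a log2 fold change of 1.53 (standard error 0.135). Ikzf4, which encodes Eos and lies on chromosome 10 from 128630843 to 128645991, was counted 331 and 421 times in WT and 533 and 663 times in the KO-labelled libraries, or normalized counts of 11.0, 13.4, 18.5 and 21.2. The groups did not overlap, but the log2 fold change of 0.74 (standard error 0.216) was less than that of Ikzf2. In the test across all genes Ikzf3, which encodes the family member Aiolos, rose with a log2 fold change of 0.42 (adjusted p = 0.0171), while Ikzf1, which encodes Ikaros itself, had one of 0.01 (adjusted p = 0.977). The adjusted p of Ikzf3 was 0.0814 with low counts kept (all 22158 genes with a count entered the test), 0.0580 without WT 1 and 0.0812 without WT 2.

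CTLA-4 and TIGIT are inhibitory receptors that compete with the costimulatory receptors CD28 and CD226 for shared ligands. Ctla4, on chromosome 1 from 60887000 to 60915832, had the highest level per kilobase of the 9 genes. Its normalized count was 280 and 390 in WT and 389 and 435 in the KO-labelled libraries, from 8469, 12307, 11218 and 13637 counts. It was the only member whose groups overlapped, since WT 2 was level with ICAM-1 KO 1. The resulting log2 fold change was 0.33 (standard error 0.144), and it was 0.11 without WT 1 and 0.59 without WT 2. Tigit, on chromosome 16 from 43648867 to 43664146, had normalized counts of 16.2 and 24.0 in WT and 31.9 and 34.7 in the KO-labelled libraries, from 489, 756, 918 and 1088 counts. Its groups stood apart, with WT 2 the nearer of the WT libraries. The log2 fold change of Tigit was 0.76 (standard error 0.205), and it was 0.50 without WT 1 and 1.07 without WT 2. In both genes WT 1 was the lowest library.

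The next 3 genes handle latent TGF-β or are receptors tied to it. Lrrc32 encodes GARP, which anchors latent TGF-β on the surface of regulatory T cells and is also known from endothelium and platelets. On chromosome 7 from 98489283 to 98502181, it was counted 235 and 303 times in WT and 976 and 744 times in the KO-labelled libraries, or normalized counts of 7.79, 9.63, 33.9 and 23.7. The groups did not overlap, although ICAM-1 KO 1 lay well above the second of its group. This gave a log2 fold change of 1.75 (standard error 0.245). Itgb8 encodes the β8 chain of the integrin αvβ8, which releases active TGF-β from the complex with GARP. It had the lowest level per kilobase of the 9 genes and was counted 50 and 27 times in WT and 177 and 113 times in the KO-labelled libraries. Its normalized counts of 1.68, 0.887, 6.18 and 3.63 gave a log2 fold change of 1.98, the largest of the 9, with the largest standard error (0.513). The log2 fold change was 1.36 with limma on log2(normalized count + 1) and 1.57 without ICAM-1 KO 1, below that of Foxp3 in both, so this rank was not stable. The libraries within each group were more unlike, as a ratio, than for any other member, yet the lowest KO-labelled library still lay above the highest WT library.

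Nrp1 encodes neuropilin-1, a receptor for semaphorins and VEGF that marks many regulatory T cells of thymic origin and is also found on endothelium and ILC2s. On chromosome 8 from 128358604 to 128503363, it had normalized counts of 151 and 132 in WT and 175 and 178 in the KO-labelled libraries, from 4560, 4156, 5055 and 5576 counts. The groups did not overlap, but the log2 fold change was only 0.35 (standard error 0.0988). Izumo1r encodes folate receptor 4, a surface protein typical of regulatory T cells. On chromosome 9 from 14885814 to 14903949, it was counted 116 and 164 times in WT and 326 and 446 times in the KO-labelled libraries. The normalized counts were 3.86, 5.22, 11.4 and 14.2, so that both libraries of the second group were more than 2-fold above both WT libraries. The log2 fold change was 1.53 (standard error 0.300). Izumo1r lies 6.11 Mb from Icam1 on the same chromosome. Of the 87 genes tested within 10 Mb of Icam1, 4.6% rose and 5.75% fell at an adjusted p under 0.05, and their median log2 fold change was -0.07.

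**Figure D1:**
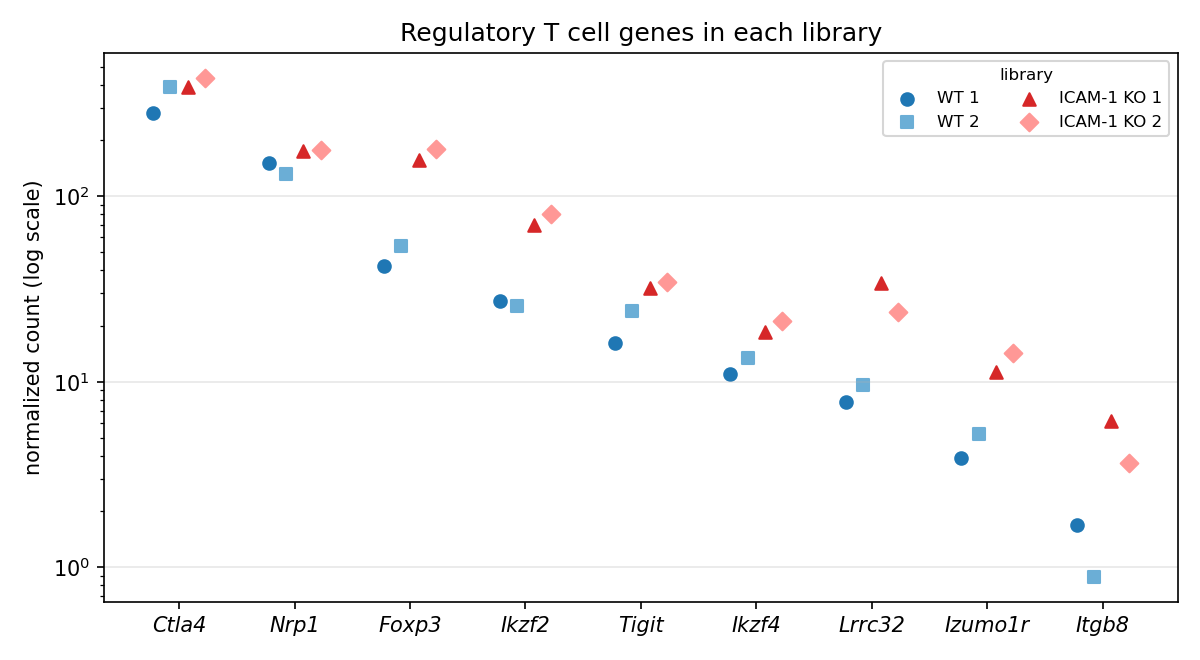
Normalized counts (upper quartile values of the authors, log axis) of the 9 regulatory T cell genes in each of the 4 libraries, with 1 point per library and genes ordered by their mean in WT. Points of the KO-labelled libraries lie above both WT points for every gene but Ctla4, and the gap is wide for Foxp3 (42.4 and 53.9 against 157 and 181) and narrow for Nrp1 (151 and 132 against 175 and 178).

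Taken as a list, 8 of the 9 genes had both KO-labelled libraries above both WT libraries and none had both below. Of all 11711 genes tested, 28.3% had both above and 31.3% had both below. Both limits of a call, an adjusted p under 0.05 and at least 2-fold, were passed by 5 members (Foxp3, Ikzf2, Lrrc32, Izumo1r and Itgb8), all higher, against 4.94% of all genes called higher and 0.538% called lower. At an adjusted p under 0.05 alone the number was 7, all higher, against 8.80% of all genes higher and 4.97% lower. The number past both thresholds was 3 without WT 1 and 3 with low counts kept. These counts are given as a description, since the same contrast was known when the genes were chosen. The median log2 fold change of the members was 1.53, and that of all genes tested was 0.01. The members formed a group with log2 fold changes of 1.53 to 1.98, which holds Foxp3, Ikzf2, Lrrc32, Izumo1r and Itgb8, and a group of 0.33 to 0.76, which holds Ctla4, Nrp1, Ikzf4 and Tigit.

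**Figure D2:**
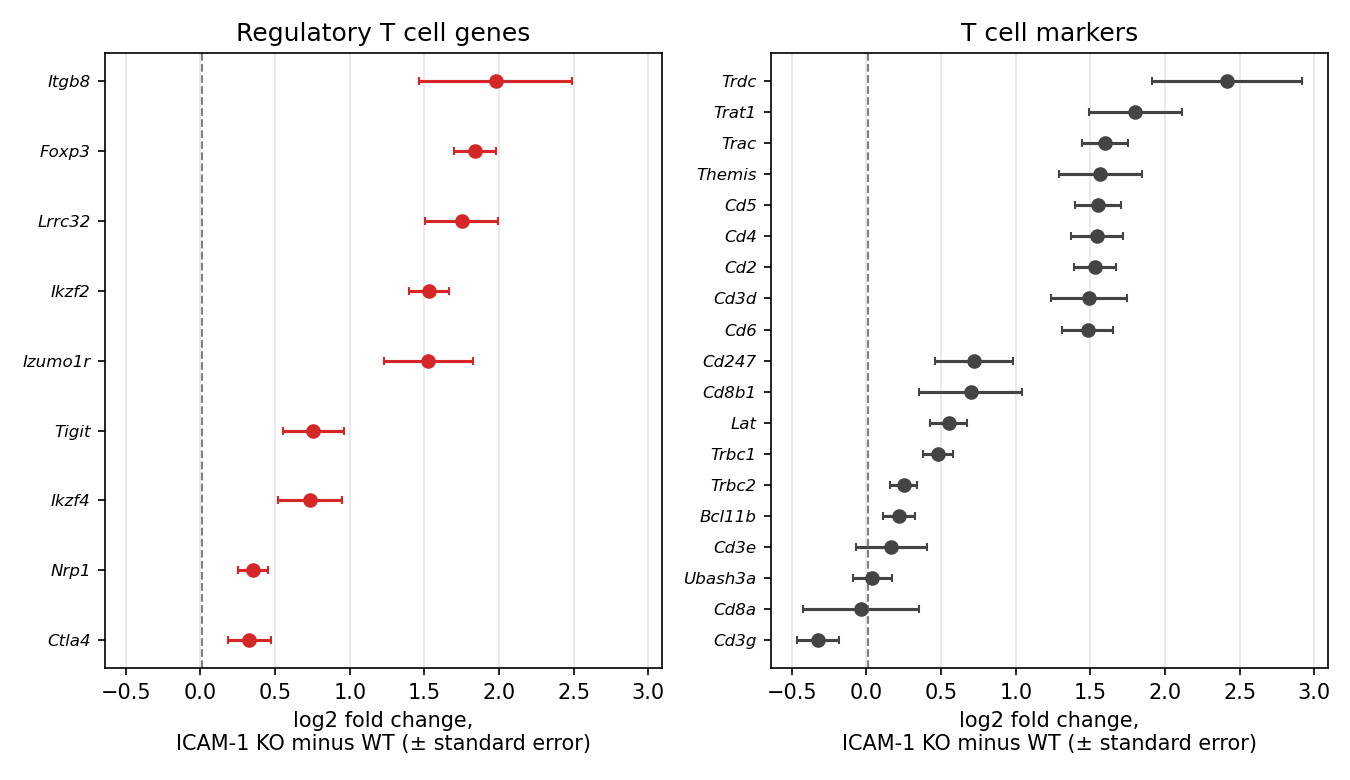
Log2 fold changes (KO-labelled libraries minus WT, with standard errors from edgeR) of the 9 regulatory T cell genes on the left and of the 19 T cell markers on the right; the dashed line is the median of all genes tested, 0.01. The members lie between 0.33 (Ctla4) and 1.98 (Itgb8), and the T cell markers between -0.33 (Cd3g) and 2.42 (Trdc).

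To compare levels between genes, normalized counts were divided by the kilobases of merged exons. On this scale Ctla4 stood first in WT, at 144 ± 33.4 per kb (SD, n = 2), followed by Tigit at 21.8 ± 6.00, Nrp1 at 14.4 ± 1.37 and Foxp3 at 10.5 ± 1.79. Ikzf2 (2.28 ± 0.0870), Ikzf4 (2.03 ± 0.283), Izumo1r (1.96 ± 0.415) and Lrrc32 (1.86 ± 0.277) followed, and these neighbours did not differ beyond their spread. Itgb8 was last at 0.116 ± 0.0510 per kb. In the second group, Ctla4 was again first at 177 ± 13.7 per kb and Itgb8 last at 0.443 ± 0.163. Foxp3 stood at 36.9 ± 3.64 per kb beside Tigit at 36.2 ± 2.15, 2 levels that did not differ beyond their spread, and both were above Nrp1 at 18.0 ± 0.158. Ikzf2 (6.47 ± 0.623), Lrrc32 (6.15 ± 1.53) and Izumo1r (5.52 ± 0.881) again overlapped, and Ikzf4 at 3.31 ± 0.309 lay below them. The order depends on the length used. With the longest transcript in place of the merged exons, 5 members in WT and 6 in the other group changed place, and Nrp1 moved up to follow Ctla4 directly, with 38.7 per kb in WT and 48.4 in the KO-labelled libraries.

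Many T cell markers were also higher in the KO-labelled libraries. Of 19 T cell markers, 11 rose in the KO-labelled libraries and none fell in that test at an adjusted p under 0.05, beside 8.80% and 4.97% of all genes tested, with a median log2 fold change of 0.72. Their summed normalized count was 976 and 1095 in WT and 1500 and 1766 in the KO-labelled libraries, and no marker was at 0 in any library. Trac, the constant region of the T cell receptor α chain, rose from 1779 and 2485 counts to 5278 and 7047 counts (log2 fold change 1.60, adjusted p = 0.000674). Cd4 rose from 675 and 862 counts to 1770 and 2527 counts (log2 fold change 1.55, adjusted p = 0.00143), although CD4 protein was part of the panel that the sort left out. The same held for Cd5, with a log2 fold change of 1.55 (adjusted p = 0.000711). Cd3d rose by 1.49 on the log2 scale (adjusted p = 0.00796). The other CD3 chains did not pass the test, with log2 fold changes of 0.17 for Cd3e (adjusted p = 0.690) and -0.33 for Cd3g (adjusted p = 0.158). Trbc1 rose with a log2 fold change of 0.48 (adjusted p = 0.0169), whereas Trbc2 (0.25, adjusted p = 0.0987) and Cd8a (-0.04, adjusted p = 0.962) did not pass. Transcripts of CD3 chains and T cell receptor constant regions are also known in innate lymphoid cells. With low counts kept, 6 of the 19 markers rose, and the adjusted p was 0.0632 for Cd3d and 0.0873 for Trbc1. Of the 4 fits that lacked a library, Trbc1 passed only in that without ICAM-1 KO 1, and its adjusted p was 0.0535 without WT 1, 0.0911 without WT 2 and 0.0684 without ICAM-1 KO 2. Without ICAM-1 KO 2, Cd3g fell, with a log2 fold change of -0.55 (adjusted p = 0.0169).

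Set against Trac, which differed between the groups about as much as Ikzf2 and Izumo1r, the members differed in their ratios. Foxp3 counts were 72.1% and 68.5% of the Trac counts in the WT libraries and 85.8% and 80.5% in the KO-labelled libraries. Izumo1r counts were 6.52% and 6.60% of Trac in WT and 6.18% and 6.33% in the KO-labelled libraries, nearly level in all 4. Those of Ikzf2 were 46.3%, 32.7%, 38.2% and 35.7%, with the groups overlapping. Lrrc32 and Itgb8 also overlapped on this scale, at 10.6% to 18.5% and at 1.09% to 3.35%. Ctla4 instead went from 476% and 495% of Trac in WT to 213% and 194%, and Nrp1 from 256% and 167% to 95.8% and 79.1%. Tigit (27.5% and 30.4% against 17.4% and 15.4%) and Ikzf4 (18.6% and 16.9% against 10.1% and 9.41%) were likewise lower relative to Trac in both KO-labelled libraries. Relative to Cd4, Tigit (72.4% and 87.7% in WT against 51.9% and 43.1%) and Ikzf4 (49.0% and 48.8% against 30.1% and 26.2%) were again lower. Ctla4 and Nrp1 were lower in both KO-labelled libraries relative to Cd4 too, while Izumo1r, Ikzf2, Lrrc32 and Itgb8 overlapped. Between Trac and Cd3e, the choice of marker changed the level and, for Tigit, Ikzf4 and Izumo1r, the direction. Relative to Cd3e, which did not pass the test, Tigit was 52.4% and 47.3% in WT and 85.1% and 66.5% in the KO-labelled libraries, and Ikzf4 was 35.5% and 26.3% against 49.4% and 40.5%, higher in both. On the same scale Ctla4 (908% and 770% against 1040.1% and 834%) and Nrp1 (489% and 260% against 469% and 341%) overlapped between the groups. Relative to the summed counts of all 19 markers, Tigit (1.66% and 2.19% against 2.13% and 1.96%) and Ikzf4 (1.12% and 1.22% against 1.23% and 1.20%) overlapped as well. Foxp3 was higher in both KO-labelled libraries on each scale, at 137% and 107% of Cd3e in WT against 420% and 347%, and at 4.34% and 4.93% of the summed markers against 10.5% and 10.2%. Izumo1r, Ikzf2, Lrrc32 and Itgb8 were higher in both KO-labelled libraries relative to Cd3e and to the summed markers. Izumo1r was 12.4% and 10.3% of Cd3e in WT against 30.2% and 27.3%, and Ikzf2 was 88.2% and 50.85% against 187% and 154%. The ratios are descriptions with no test, and the part of T cells in the difference of the members was not tested.

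**Figure D3:**
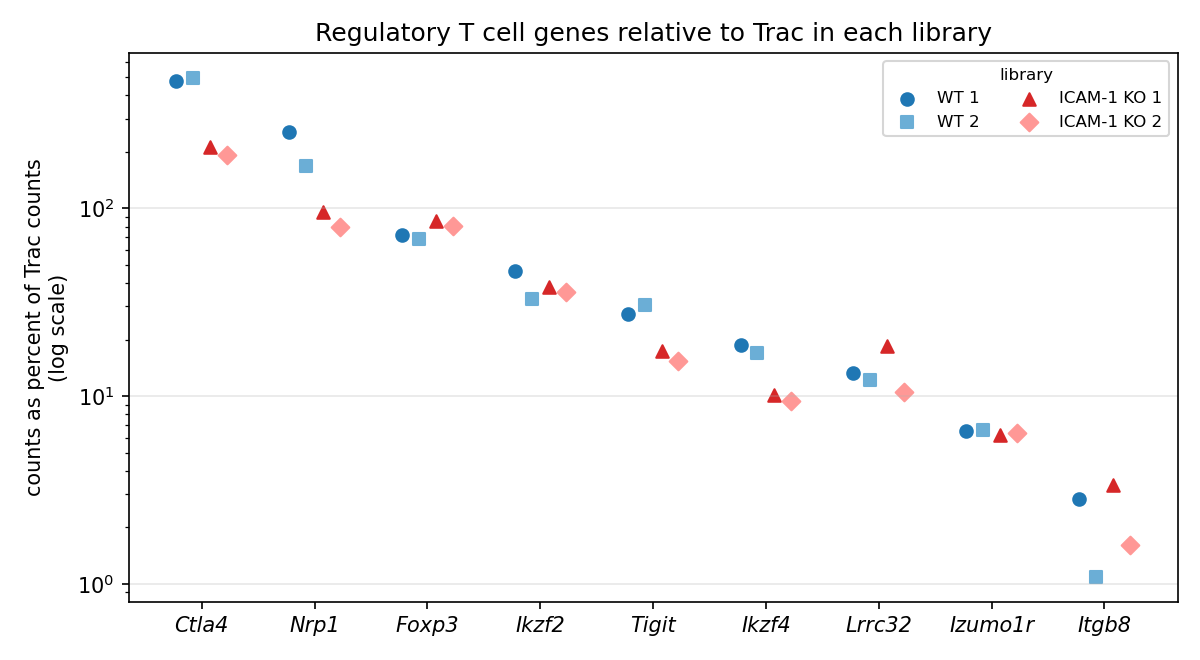
Counts of each of the 9 regulatory T cell genes as a percent of the counts of Trac in the same library (log axis), with 1 point per library. Ikzf2, Lrrc32 and Itgb8 overlap between the groups, Foxp3 lies higher in both KO-labelled libraries (85.8% and 80.5% against 72.1% and 68.5%), and Ctla4, Nrp1, Tigit, Ikzf4 and, by a small distance, Izumo1r (6.18% and 6.33% against 6.52% and 6.60%) lie lower.

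Ratios to Foxp3 itself put a member in the place of the T cell marker. Foxp3 had a log2 fold change of 1.84, so members with smaller ones are on average lower relative to it by arithmetic alone. Ikzf2 counts were 64.2% and 47.7% of Foxp3 counts in WT and 44.5% and 44.4% in the KO-labelled libraries. Ctla4 counts were 661% and 723% of Foxp3 in WT and 248% and 240% in the other group, and Nrp1 counts 356% and 244% against 112% and 98.3%. For none of these 3 genes did the groups overlap. Tigit, Ikzf4 and Izumo1r were likewise lower relative to Foxp3 in both KO-labelled libraries. Lrrc32 (18.3% and 17.8% against 21.6% and 13.1%) and Itgb8 (3.90% and 1.59% against 3.91% and 1.99%) overlapped between the groups.

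Of the wider pathway, 89 genes were followed in 5 lists, and 82 passed the limits on low values. In the test across all genes 21 of the 82 rose and 6 fell, beside 8.80% and 4.97% of all genes tested, and 10 rose by at least 2-fold while none fell by as much, beside 4.94% and 0.538%. Their median log2 fold change was 0.11. The numbers were 11 risen without WT 1, 3 fallen with either WT library left out, and 8 risen with low counts kept. Some of these genes are expressed by ILC2s as well, and Gata3, Il1rl1, Il7r, Icos, Klrg1 and Areg also stood in the list of ILC2 markers.

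Factors that act with FOXP3 or on the Foxp3 gene made up 29 genes, all tested, of which 4 rose, 1 fell and 24 did not pass, with a median log2 fold change of 0.08. The 13.8% of this list that rose is near the 8.80% of all genes tested. Tcf7, which encodes TCF1, a factor of naive and memory T cells, rose from 34.7 to 74.5 normalized counts on average (log2 fold change 1.13, standard error 0.152, adjusted p = 0.00290). Rel, which encodes the NF-κB subunit c-Rel that binds the Foxp3 locus, rose by 0.73 on the log2 scale (adjusted p = 0.00418), and Prdm1, which encodes Blimp-1 of effector regulatory T cells, by 0.83 (adjusted p = 0.0116). The fourth was Ikzf3, described above. Batf, an AP-1 factor of effector lymphocytes, fell, with a log2 fold change of -0.46 (adjusted p = 0.0142). The adjusted p of Prdm1 was 0.0523 without WT 1 and 0.0656 with low counts kept, and that of Batf was 0.0535 without WT 1 and 0.0624 without WT 2. The factors with the highest normalized counts did not pass the test. Nr4a1, a factor induced by antigen receptor signals, had a log2 fold change of 0.08 (adjusted p = 0.719), Gata3 one of -0.14 (adjusted p = 0.363) and the DNA methyltransferase gene Dnmt1 one of 0.01 (adjusted p = 0.972). The signs of Nr4a1 and Dnmt1 were not stable across the alternatives.

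IL-2 keeps regulatory T cells alive and sustains Foxp3 through STAT5. Of the 6 genes tested for its receptor and kinases, none rose and 1 fell, with a median log2 fold change of -0.08. Il2ra, which encodes CD25, the high-affinity chain carried by most regulatory T cells and by activated ILC2s, had normalized counts of 699 and 836 in WT and 536 and 524 in the KO-labelled libraries. It fell by 0.51 on the log2 scale (standard error 0.0992, adjusted p = 0.0133, and 0.0786 without WT 2). Il2rg, the shared γ chain, and Jak1, its kinase, had the highest normalized counts of the list and did not pass, at -0.07 (adjusted p = 0.646) and -0.08 (adjusted p = 0.565) on the log2 scale. Il2 itself stayed under the limits on low values. Il2ra was thus lower in the libraries in which Foxp3 was higher.

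Of 20 tested genes for other surface receptors of regulatory T cells, 9 rose, 1 fell and 10 did not pass, and the median log2 fold change was 0.18. Ccr6, a chemokine receptor of T and B cells, rose from 6.14 and 14.2 to 32.1 and 38.0 normalized counts (log2 fold change 1.80, adjusted p = 0.00782). Cd200, which encodes a ligand that quiets myeloid cells, rose from 11.3 and 14.0 to 25.9 and 38.0 (log2 fold change 1.37, adjusted p = 0.00881). The adjusted p with low counts kept was 0.0561 for Ccr6 and 0.0544 for Cd200, and without WT 1 it was 0.0560 for Cd200. Others that rose were Tnfrsf9, Tnfrsf4, Itgae, Tnfrsf1b, Cd83 and Klrg1, with log2 fold changes of 0.41 to 1.03. Of these, the adjusted p without WT 1 was 0.106 for Tnfrsf9, 0.0694 for Tnfrsf4 and 0.0976 for Itgae, and that of Klrg1 was 0.114 without WT 2 and 0.0519 without ICAM-1 KO 2. With low counts kept, Tnfrsf4, Tnfrsf9, Itgae and Klrg1 did not pass, at adjusted p-values of 0.0826 to 0.163. For Tnfrsf4 and Tnfrsf9, which encode OX40 and 4-1BB, the adjusted p was 0.133 and 0.195 with DESeq2. Ccr8, typical of regulatory T cells in tissues and of type 2 lymphocytes, fell from 584 and 515 to 403 and 389 (log2 fold change -0.45, adjusted p = 0.0147, and 0.0860 without WT 1). Pdcd1, which encodes PD-1, and Il1rl1, which encodes ST2, were, with Ccr8, those of the list with the highest normalized counts. Neither passed, at -0.22 (adjusted p = 0.115) and 0.21 (adjusted p = 0.173) on the log2 scale. The adjusted p of Pdcd1 was 0.0449 with DESeq2.

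Among 10 tested genes of suppressive effectors, 3 rose, 2 fell and 5 did not pass, with a median log2 fold change of 0.11. Entpd1, which encodes CD39, the enzyme that degrades extracellular ATP, rose from 6.14 and 6.65 to 21.9 and 26.8 normalized counts (log2 fold change 1.96, standard error 0.236, adjusted p = 0.00165). Nt5e, which encodes CD73, the enzyme of the next step to adenosine, rose by 0.60 on the log2 scale (adjusted p = 0.00851, and 0.0534 with low counts kept). Il10 rose from 2.54 and 2.50 to 6.56 and 5.70 (log2 fold change 1.31, adjusted p = 0.0421). It passed in none of the 4 fits that left out a library, where the adjusted p was 0.0795 to 0.136, and the adjusted p was 0.0957 with low counts kept. Lgals1, which encodes galectin-1, fell with a log2 fold change of -0.39 (adjusted p = 0.0147), and Fgl2, which encodes a secreted fibrinogen-like protein, fell with one of -0.42 (adjusted p = 0.0358). The adjusted p of Lgals1 was 0.0860 without WT 1 and 0.0646 without WT 2, and that of Fgl2 was 0.188 without WT 1, 0.0992 without ICAM-1 KO 2 and 0.0918 with low counts kept. Areg, the growth factor amphiregulin made by ILC2s and by regulatory T cells of tissues, had a log2 fold change of -0.23 (adjusted p = 0.170).

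**Figure D4:**
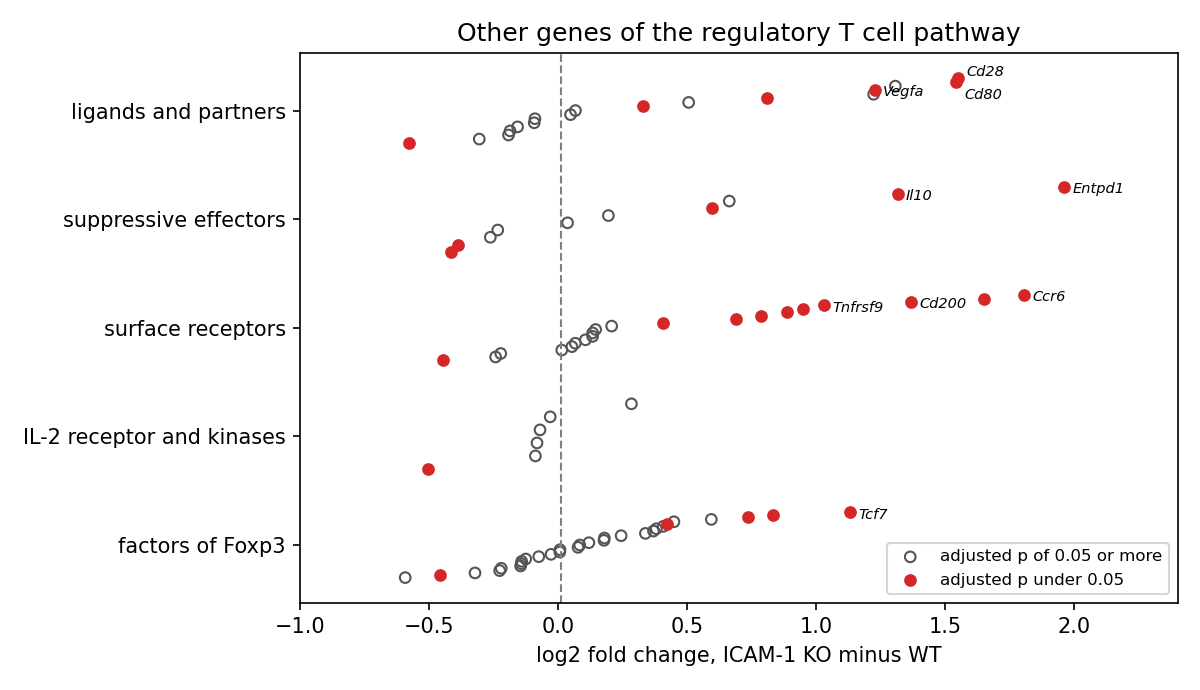
Log2 fold changes (KO-labelled libraries minus WT) of the 82 tested genes of the 5 pathway lists, with 1 point per gene, filled where the adjusted p from edgeR was under 0.05, and names for 9 of those that also changed by at least 2-fold; the dashed line is the median of all genes tested, 0.01. The 9 named genes all lie to the right, up to Entpd1 at 1.96, while the 6 filled points on the left lie between -0.58 (Furin) and -0.39 (Lgals1).

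Of 17 tested genes for ligands, competing receptors and partners of the members, 5 rose, 1 fell and 11 did not pass, with a median log2 fold change of 0.07. For CTLA-4 and TIGIT, these include the competing receptors and the ligands on other cells. Cd28 rose from 25.4 and 39.8 to 82.5 and 104.8 normalized counts (log2 fold change 1.55, standard error 0.204, adjusted p = 0.00271). Cd80, a ligand shared by CD28 and CTLA-4 and carried by antigen-presenting cells, rose from 3.70 and 5.38 to 11.7 and 14.1 (log2 fold change 1.54, adjusted p = 0.0132, but 0.0529 with low counts kept and 0.0692 without WT 1). Cd28, Ctla4 and Icos are neighbours on chromosome 1, with gaps of 114 kb and 62.1 kb. Icos, whose product is another costimulatory receptor, had a log2 fold change of 0.07 (adjusted p = 0.743). Of the genes beside latent TGF-β, Itgav, the partner chain of Itgb8, rose by 0.33 on the log2 scale (adjusted p = 0.0452). That call was lost in each of the 4 fits without a library, with an adjusted p of 0.0991 to 0.162. Furin, which encodes a protease that cleaves the TGF-β precursor, fell from 1151 and 1022 to 698 and 729 (log2 fold change -0.58, adjusted p = 0.00538). Tgfbr1, a TGF-β receptor chain, rose by 0.81 on the log2 scale (adjusted p = 0.0461), but its adjusted p was 0.172 without WT 1, 0.0762 without WT 2, 0.195 without ICAM-1 KO 2 and 0.115 with low counts kept. Tgfbr2, the other chain, had a log2 fold change of 0.05 (adjusted p = 0.760). Vegfa, a ligand of neuropilin-1, rose from 22.9 and 18.8 to 45.0 and 50.4 (log2 fold change 1.23, adjusted p = 0.00274).

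Many markers of other cell types were higher in the KO-labelled libraries as well. Of 33 tested markers of B cells, NK cells, macrophages, dendritic cells, endothelium, epithelium, platelets and mesenchyme, 21 rose and none fell, beside 8.80% and 4.97% of all genes tested, with a median log2 fold change of 1.06. The number risen was 13 without WT 1 and 9 with low counts kept. Lrrc32 and Nrp1 are known from endothelium. Of 6 endothelial markers 5 rose, and their summed normalized count was 94.2 and 104 in WT and 231 and 239 in the KO-labelled libraries, with Pecam1 at the highest normalized count (log2 fold change 1.07, adjusted p = 0.00112). Of 6 macrophage markers 5 rose, with sums of 224 and 221 against 450 and 707 and Lyz2 at the highest (log2 fold change 1.46, adjusted p = 0.00324). Itgb8 is known from dendritic cells and epithelium. Of 3 dendritic cell markers tested 2 rose, with sums over the list of 32.3 and 32.9 against 55.4 and 64.0. Of 5 epithelial markers 2 rose, with sums of 376 and 156 against 400 and 1085, and Sftpb was at 0 in WT 2. Sftpc, a surfactant gene, had 24.2 and 0.57 normalized counts in WT and 253 and 537 in the KO-labelled libraries (log2 fold change 5.05, adjusted p = 0.00477, but 0.0524 with low counts kept). Sftpb, another surfactant gene, rose by 4.28 on the log2 scale (adjusted p = 0.0106). That call was lost with DESeq2 (adjusted p = 0.300), with low counts kept (0.0706) and with the older edgeR method (0.0529). Without WT 2 the log2 fold change of Sftpb was 3.25. Of 5 B cell markers 4 rose, with sums of 156 and 144 against 299 and 240. Lists for NK cells (sums of 12.5 to 29.1 over all libraries), platelets (12.0 to 20.5) and mesenchyme (6.04 to 29.1) were near the low limit, with 1, 2 and 0 markers risen. In the remaining lists the markers with the highest normalized counts were Ms4a1 (B cells, log2 fold change 1.01, adjusted p = 0.00791) and Zbtb46 (dendritic cells, 1.05, adjusted p = 0.00594), which rose, and Scgb1a1 (epithelium, 0.43), Gzma (NK cells, 0.12), Itga2b (platelets, 0.02) and Col1a2 (mesenchyme, 0.36), which did not pass. Ms4a1 had an adjusted p of 0.0549 without WT 1 and of 0.0609 with low counts kept. Klra8 was at 0 in WT 2 and Gp9 and Tgfb2 in ICAM-1 KO 2. The part of these cells in the levels of the members was not tested.

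**Figure D5:**
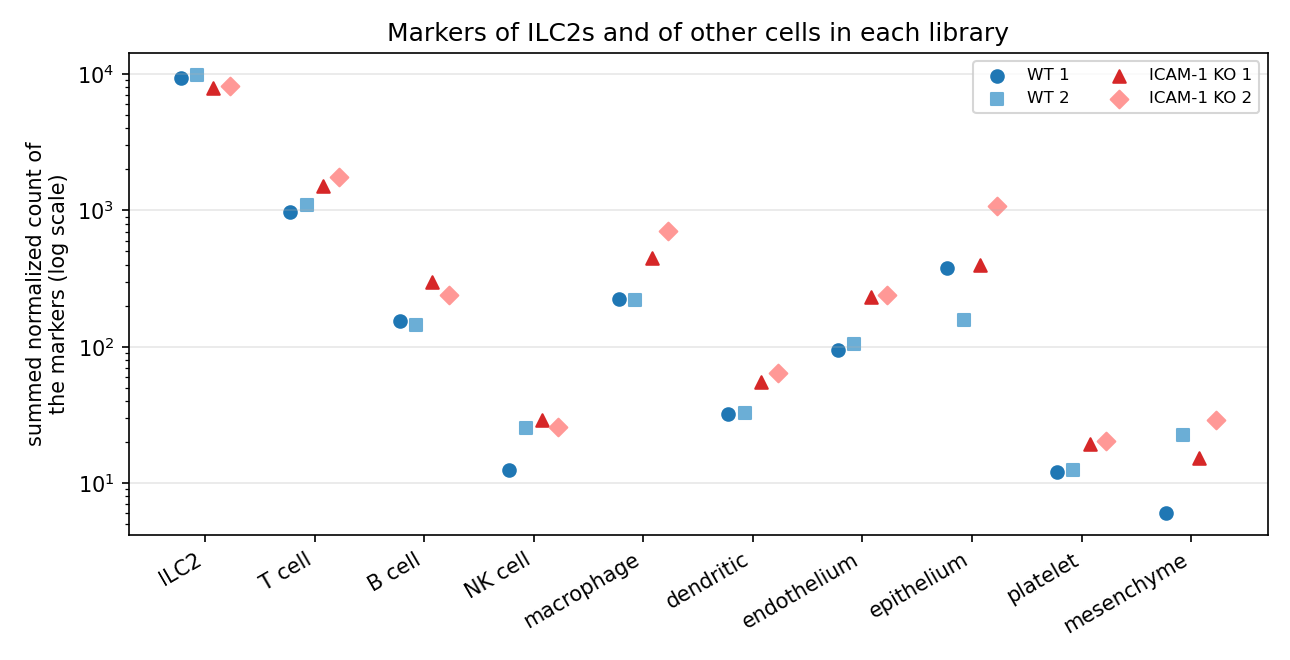
Summed normalized counts (log axis) of the markers of ILC2s, T cells and 8 other cell types in each of the 4 libraries, with 1 point per library. The ILC2 sum lies lower in the KO-labelled libraries (7943 and 8119 against 9342 and 9851), and the sums for T cells, B cells, NK cells, macrophages, dendritic cells, endothelium, epithelium and platelets lie higher in both, while those for mesenchyme overlap.

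The genes most like Foxp3 were found from the root mean square difference of mean-centred log2 normalized counts over the 4 libraries, among 5802 tested genes with a mean level from 0.25 to 4 times that of Foxp3. The nearest was Il21r, which encodes the IL-21 receptor of lymphocytes, at a difference of 0.0487. Also among the 5 nearest were Trf, which encodes the iron carrier transferrin, at 0.110, Trac at 0.128 and Btg2, an antiproliferative gene, at 0.128. The same 5 genes came first with log2 CPM in place of the normalized counts. In all, 33 genes lay at or under 0.25, as can happen with only 4 libraries. Among the members that were compared, Ikzf2 was number 23 in this order, with a difference of 0.219, while Ctla4 was number 616 and Nrp1 number 733. Cd4 and Cd28 were numbers 13 and 14. Other T cell markers were spread widely: Cd5 was number 15 and Cd3d 36, but Trbc1 was 418, Trbc2 991, Cd3e 1316 and Cd3g 4991. The tenth was Cav1, which encodes caveolin-1 of endothelium and was named after its values had been seen. Of the compared markers with the highest normalized counts in other cell types, Lyz2 was number 48, Pecam1 77, Ms4a1 111 and Scgb1a1 5585. Nearness to Foxp3 was thus not confined to T cell markers.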

How the data were processed

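RNA of FACS-sorted lung ILC2s from 2 WT and 2 ICAM-1 KO pools was made into cDNA with a low-input kit. The authors aligned reads with STAR to mm10 and GENCODE M20 and estimated counts per gene by the E/M method of Partek. Per the labels, the versions were CASAVA 1.8.2 and STAR 3.5.3, while the paper names another version of STAR. The deposited expected counts (estimated counts, not normalized) cover 22558 genes, and 56.7% of values are whole within 0.001. The deposited normalized signal covers 18324 genes and equals the count plus 1 multiplied by an upper quartile factor per library.

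Here the counts were rounded, scaled by upper quartile factors and tested with edgeR 4.0.16 (glmQLFit with the newer method, glmQLFTest) in R 4.3.3, over 11711 genes (mean of the normalized counts at least 1, sum at least 10). Benjamini-Hochberg adjustment ran over all of them, and calls needed an adjusted p under 0.05 and at least 2-fold. Standard errors follow from the fold change and its F statistic. The script was tested on simulated data. Separate cultures or animals beyond the pools are not given, so p-values measure only the spread between these libraries.

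The members, gene lists and tests were chosen with earlier results of these data known. Genes named are the members, Icam1, the 3 genes with the highest mean normalized count and up to 3 with the smallest adjusted p among 2-fold changes in each pathway list, 9 T cell markers, the marker with the highest mean in other lists, markers at 0, the 5 genes most like Foxp3 and genes overlapping a member. A gene that this rule takes is not reported here. Rel, Prdm1, Ikzf1, Ikzf3, Batf, Nt5e, Icos, Tnfrsf1b, Tnfrsf4, Tnfrsf9, Cd83, Itgae, Klrg1, Tgfbr1, Sftpc, Trdc and Cav1 were named after their values were seen. Alternatives were TMM factors, DESeq2 1.42.0, no filter, filterByExpr, limma 3.58.1 on log2(normalized count + 1), the older edgeR method, a replicate block, leaving out each library, log2 CPM and another transcript length. Gene lengths, strand and overlaps came from GENCODE M21, where 21881 genes had the deposited coordinates.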

Additional observations from a re-analysis of the deposited data

How the results depend on the processing

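The median log2 fold change of the members stayed at 1.32 to 1.53 under every alternative, and each of the 9 kept its direction. Of all alternatives, keeping low counts, which raised the genes tested from 11711 to 22158, ended the calls of most named genes. There, 273 genes were called higher and 39 lower, 8 pathway genes, 6 T cell markers and 9 markers of other cell types rose, and 3 members passed both thresholds. Over the fits that lacked a library, the genes called higher numbered 338 to 596, pathway genes risen 11 to 22 and fallen 3 to 6, markers of other cell types risen 13 to 21 and fallen 0 to 1, T cell markers fallen 0 to 1, and members past both thresholds 3 to 5. The lowest count of genes called higher came without WT 1. A lone library was assumed to vary like the other group, and the cause of these shifts was not tested. With the longest transcript as length, 5 members in WT and 6 in the KO-labelled libraries changed place in the order of levels.

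Only genes that did not pass the test turned direction. Dnmt1 had log2 fold changes of -0.00134 with DESeq2, -0.039 with low counts kept, -0.024 with filterByExpr and -0.022 with limma. Over the 4 fits that lacked a library, Dnmt1 ranged from -0.065 to 0.075, Cd3e from -0.15 to 0.57, Nr4a1 from -0.087 to 0.26, Cd8a from -0.42 to 0.28 and Il2rg from -0.16 to 0.013. The cause was not tested.

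Replicate numbers are shared between the groups, but deviations of libraries with the same number correlated at -0.0663, and nothing in the labels pairs them. With a replicate block, 601 genes were called higher and 67 lower, 24 pathway genes rose and 7 fell, and 12 T cell markers rose, with adjusted p-values of 0.0558 for Il10 and 0.0502 for Itgav. At 27 to 177 counts per library, Itgb8 is the member whose values depth limits most.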
